A study of Oryza sativa with 24 samples.

Results

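Rice seedlings that had stood in 15% PEG6000 for 24 or 48 h were compared with seedlings sampled before the treatment, at 0 h. The comparison takes every array whose title gives 24 or 48 h (8 arrays of 4 small RNA libraries) and every array whose title gives 0 h (4 arrays of 2 libraries), 12 of the 24 arrays and 6 of the 12 libraries of the series. Both late times lie a whole number of days after 0 h, so they fall at the same time of day as the untreated sample if the stated hours were kept. The labels give no clock time. The seedlings were rice, Oryza sativa, raised in Yoshida's nutrient solution with 13 h of light at 26 °C followed by 11 h of dark at 22 °C. All groups shared this medium and light cycle, and the late groups differed from 0 h by PEG and by 1 or 2 more days of growth. Seedlings kept for those days without PEG were not analysed here, so time in PEG and added growth cannot be told apart. The series also covers 0.5, 2 and 6 h of PEG, which are used below for a single comparison of late with early treatment.

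PEG6000 is a large polymer that stays outside the root and lowers the water potential of the medium, which makes it a common way to impose osmotic stress on seedlings. MicroRNAs are short RNAs cut from hairpin precursors; in plants they are loaded into Argonaute proteins and guide the cleavage or translational repression of target transcripts. Many conserved plant microRNAs target transcription factors and stress-related enzymes, and the level of several is known to respond to water deficit.

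Libraries were labelled during PCR through a primer carrying the dye Cy5, and each array was read in that single colour. Each array carried 896 spots, read here as 224 sets of 4 neighbouring spots under 223 probe codes (209 codes that start with R and 14 that start with N). No source used here pairs the codes with microRNA names or sequences, so sets are given by code, at most 2 in each direction picked by rank in a comparison besides a few singled out as such, and no sequence, family or target is assigned to any of them. Levels are log2(intensity + 50) after quantile normalization. Values were averaged over the 4 spots and then over both hybridizations of each library, so n counts libraries. The design text calls the libraries biological replications without saying whether they came from separate plants. In the main fit each p-value rests on the scatter among libraries left after time and library number, much of which may be technical. When single arrays were fitted with the library as a random block, the correlation between hybridizations of a library was 0.0065. By that value they were hardly more alike than arrays of different libraries. How much of the scatter is biological was not tested.

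The arrays of the 6 libraries differed in brightness. The median spot intensity ranged from 152 to 351 on the 0 h arrays and from 164.3 to 566 on the late arrays, and the 5th percentile of intensity, which stands for the dim end, from 11.3 to 87.0 and from 31.4 to 194. Between 6 and 23 spots per array exceeded an intensity of 60000, near the maximum of the scanner. The median SD of a set was 0.13 between the hybridizations of a library and 0.14 between the libraries of a time (log2 scale).

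A minority of the spot sets differed between late PEG and the untreated state, and a few of them by a wide margin. Of the 224 sets, 33 (14.7%) differed between the late times and 0 h at an adjusted p under 0.05 in limma, with 18 higher (8.04%) and 15 lower (6.7%). The 18 higher sets had a median log2 change of 0.94 and none lay under 0.40, and 8 of them exceeded 1. The 15 lower sets had a median of -0.50 and none lay closer to 0 than -0.35, and 2 of them fell by more than 1. Over all 224 sets the median change was -0.06, and 196 sets (87.5%) lay between -0.5 and 0.5. The 95% interval of a set reached a median of 0.28 to either side of its log2 change.

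The 33 calls rest on the pairing of libraries by number. With the library number as a block all 33 sets moved the same way in library 1 and in library 2, which a call on these same values favours. Without the block 12 sets were called (8 higher and 4 lower), all of them among the 33, and fitting the 6 libraries of 0, 24 and 48 h alone called 20 (14 higher and 6 lower). The split between higher and lower depended on the scaling: it was 17 higher and 28 lower after median scaling, 21 and 9 with cyclic loess, and 26 and 5 without normalization, where the median change of all sets moved from -0.06 to 0.22.

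**Figure D1:**
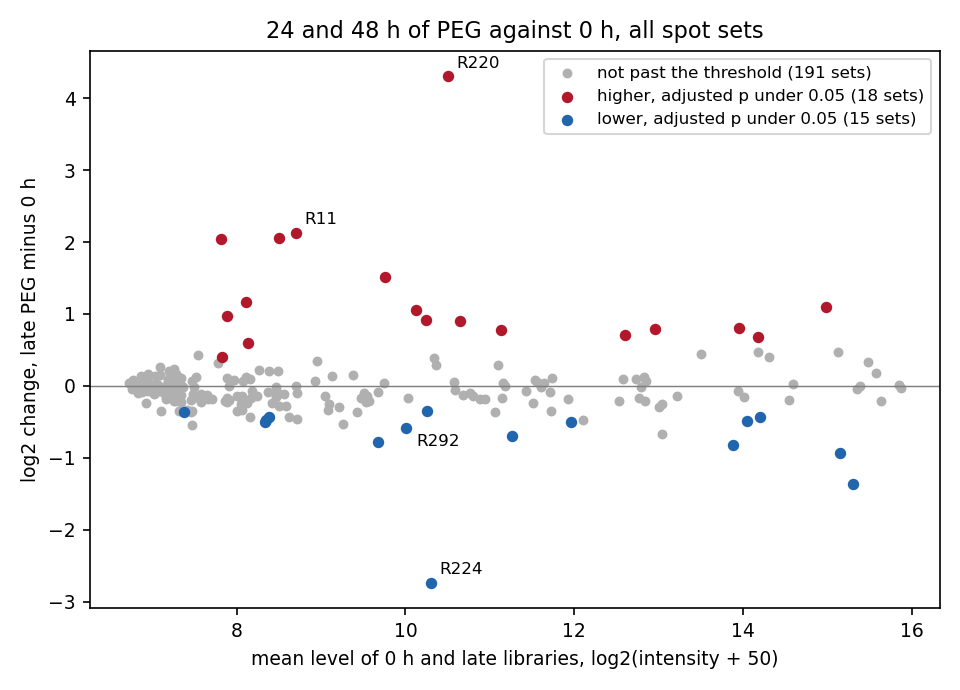
Log2 change from 0 h to the mean of 24 and 48 h of PEG (vertical axis) against mean level (horizontal axis, log2(intensity + 50)) for the 224 spot sets, each a point. The 18 higher sets (red) reach 4.31 at R220 and the 15 lower sets (blue) reach -2.73 at R224, while 191 sets (grey) did not pass an adjusted p of 0.05.

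R220 stood apart from every other set. On the 4 arrays of 0 h its log2 level was 8.43, 8.38, 8.32 and 8.25, the first pair from library 1 and the other pair from library 2. At 24 h the arrays read 12.50, 13.26, 12.28 and 12.40, and at 48 h 12.98, 13.37, 12.18 and 12.26. No late array came near a 0 h array, and at both late times library 1 lay above library 2. The raw mean intensity of the set was between 147 and 349 on the 0 h arrays and between 4281 and 12287 on the late ones. The log2 change was 4.31 with a standard error of 0.15, a 19.8-fold rise (adjusted p = 2.45e-08), and it was 4.62 in library 1 and 3.99 in library 2. Without the block the adjusted p was 3.17e-05, and it was at most 4.82e-05 over all alternatives.

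R11 was the next set in the upward direction. Its 0 h arrays read 7.67 and 7.46 in library 1 and 7.43 and 8.01 in library 2, against 9.25, 9.38, 10.49 and 9.86 at 24 h and 9.76, 9.71, 9.85 and 9.89 at 48 h. All 8 late arrays lay above all 4 arrays of 0 h. The change of 2.13 ± 0.16 (SE) corresponds to a 4.38-fold rise (adjusted p = 9.05e-06), with 1.96 in library 1 and 2.30 in library 2. R11 was dim before the treatment: on 2 of the 4 arrays of 0 h its raw intensity was under 3 times the 5th percentile of the array, so the size of the change is less certain than its direction, and it ranged from 1.52 to 2.51 over the alternatives.

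R224 fell furthest. Its 0 h arrays read 11.56 and 11.13 in library 1 and 12.19 and 11.81 in library 2. At 24 h the values were 8.43, 8.88, 9.01 and 9.33, and at 48 h 8.52, 9.02, 9.14 and 9.17. The groups did not overlap on any array, and library 2 was the higher library at all 3 times. The log2 change was -2.73 ± 0.14 (SE), a 6.65-fold fall (adjusted p = 4.65e-07; 0.00620 without the block, the highest over its alternatives), and it was nearly equal in library 1 (-2.63) and library 2 (-2.84). R220 and R224, the sets with the largest changes in each direction, are printed next to each other on the array, in row 10 of the same sub-grid. Other named sets are neighbours too: R7, R11 and R15 in row 1 of a sub-grid, and R221 and R225 in row 10 of another. A part played by position was not tested.

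The next lower set whose libraries did not overlap and whose spots stayed below the scanner maximum was R292, with a far smaller change. It read 10.32, 10.65, 9.92 and 10.32 on the 0 h arrays, 9.57, 10.16, 9.39 and 10.22 at 24 h, and 9.31, 10.02, 9.46 and 9.63 at 48 h. The arrays of the groups overlapped, while the 4 late library means (9.54 to 9.87) lay below both library means of 0 h (10.12 and 10.48). R292 fell by 0.58 ± 0.13 (SE), 1.49-fold (adjusted p = 0.0123). The call was lost when normalization was left out (-0.24, adjusted p = 0.514), with cyclic loess (0.0876), on second hybridizations alone (0.0610), without library 1 of 0 h (0.144), without the first hybridization of library 1 at the late times (0.102) and with a number from the scanner records as a covariate (0.267).

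R290 was singled out after its values were seen, because the scanner limited it. All 16 of its spots on the 0 h arrays were at the maximum of the scanner, and 0 of its 32 late spots exceeded 60000. The late set means ran from 20210 to 40562 in raw intensity. The cap at 0 h hides how bright the set was there, and the scale matters. In mean raw intensity, with no scaling for array brightness, R290 was at least 2.36-fold lower on the late arrays. After quantile normalization the fitted fall was 2.58-fold, which is an estimate with error and not a bound. The fitted log2 change was -1.37 (-1.68 to -1.06 over the alternatives; adjusted p = 0.000193, at most 0.0431), and the ceiling keeps the spread between its 0 h libraries near 0. In all, 12 of the 224 sets had a spot above 60000 on these arrays, and 3 of the 33 calls were among them (1 higher and 2 lower).

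Separation between the groups was common among the called sets. It describes them and is no separate evidence, since the calls were made on the same values. For 17 of the 18 higher and 11 of the 15 lower sets all 4 late libraries lay on the same side of both 0 h libraries, beside 59 of all 224 sets (26.3%), the called ones included. For 14 of the higher and 4 of the lower sets all 8 late arrays lay on the same side of all 4 arrays of 0 h, beside 20 of all sets (8.93%). Calls were more numerous among bright sets: 27 of the 112 brighter sets and 6 of the 112 dimmer ones passed. Dimness at 0 h, taken as a raw intensity under 3 times the 5th percentile on at least 2 of the 4 arrays, applied to 6 of the 18 higher sets, 1 of the 15 lower sets and 95 of all 224. For these the level before treatment is close to the floor of the array, and the fold is poorly resolved. Of the 14 sets with N codes 2 were higher and 0 lower, beside 8.04% higher and 6.7% lower over all sets, and with so few sets these counts are near that background. Their median change was 0.09, against -0.07 in the 210 sets with R codes.

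Changes in the 2 library numbers can be set against each other, since each number has its own 0 h library. Across all 224 sets the late change in library 1 and that in library 2 had an r of 0.79, given as a description, since spot sets do not replicate each other. Across the 191 sets not called r was 0.10, so the higher value rests on the called sets, which were picked on these same values. The median absolute difference between the changes of the 2 libraries was 0.24 on the log2 scale, larger than the median absolute change of a set (0.16).

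**Figure D2:**
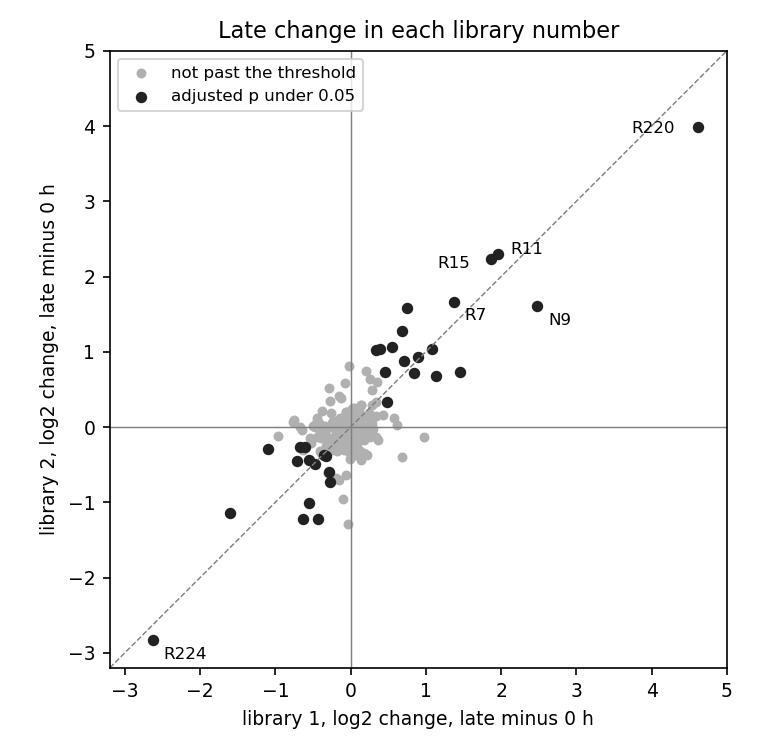
Log2 change from 0 h to the late mean in library 1 (horizontal axis) and library 2 (vertical axis) for the 224 spot sets, with the line of equal change dashed. The 33 called sets (black) lie in the quadrants where both libraries moved the same way, with R220 at 4.62 and 3.99 and R224 at -2.63 and -2.84, and the 191 other sets (grey) scatter around 0.

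Taken alone, 24 h of PEG gave 23 called sets (10.3%), 15 higher and 8 lower, with 51 at an unadjusted p under 0.05. Without the block 8 were called (7 higher and 1 lower), and median scaling gave 13 higher and 16 lower. The sets named here are the first in each direction after those already described. N9 had library levels of 6.76 and 6.83 at 0 h and 9.08 and 8.46 at 24 h. All 4 arrays of 24 h (8.22 to 9.14) were above all 4 of 0 h (6.71 to 6.87). The fitted rise was 1.98 ± 0.21 (SE; adjusted p = 0.0001), with a range of 1.16 to 2.44 over the alternatives. On all 4 arrays of 0 h N9 was dim, with a mean raw intensity of 46.6, below the offset of 50, so its fold change is not resolved.

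R15 had library levels of 7.52 and 7.45 at 0 h and 9.27 and 9.47 at 24 h. The groups did not overlap on any array, and R15 rose by 1.89 ± 0.14 (SE) in the fit (adjusted p = 9.31e-06). It too was dim on 2 of the 4 arrays of 0 h, and its log2 change ranged from 1.30 to 2.20 over the alternatives. In the downward direction R64 went from 12.26 and 12.16 to 11.45 and 11.74, with every 24 h array below every 0 h array. It fell by 0.61 ± 0.14 (SE; adjusted p = 0.0195). The call was lost without the block (0.0595), without normalization (0.116), with the 6 libraries alone (0.0971), when the first (0.0961) or second (0.0530) 0 h library or library 1 of 24 h (0.139) was omitted, and on first hybridizations alone, where the change was -0.30 (0.471). R298 went from 8.73 and 8.44 to 7.99 and 8.04 and fell by 0.57 ± 0.14 (SE; adjusted p = 0.0308). Its arrays also did not overlap, but the call was lost in 10 alternatives, among them without the block (0.0858), omitting library 1 of 0 h (0.184) or, at 24 h, library 1 (0.126) or library 2 (0.173), and the change on first hybridizations alone was -0.21 (0.503). The count at 24 h was 15 without library 2 of 24 h (11 higher and 4 lower).

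At 48 h 30 sets were called (13.4%), 22 higher and 8 lower, with 54 at an unadjusted p under 0.05. Without the block 11 were called (7 higher and 4 lower). Median scaling gave 15 higher and 29 lower, and leaving out normalization gave 39 higher and 4 lower. R7 had library levels of 9.13 and 8.86 at 0 h and 10.36 and 10.17 at 48 h. All 48 h arrays exceeded all 0 h arrays, and R7 rose by 1.27 ± 0.15 (SE), 2.41-fold (adjusted p = 0.000223). Its mean level was already 10.24 at 0.5 h and 10.26 at 2 h, beside 10.26 at 48 h. R53 went from 9.86 and 9.34 to 10.92 and 10.26, a rise of 0.99 ± 0.12 (SE), 1.99-fold (adjusted p = 0.000223). Its libraries differed at both times in the same direction, and without the block the adjusted p was 0.160, the 1 alternative that ended its call.

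Among the lower sets at 48 h, R111 went from 11.59 and 11.64 to 10.19 and 10.86. All its 48 h arrays (9.97 to 10.99) lay below all its 0 h arrays (11.34 to 11.86), and it fell by 1.09 ± 0.21 (SE), 2.12-fold (adjusted p = 0.00874). The call was lost without the block (0.152), when library 1 was omitted at 0 h (0.0653) or at 48 h (0.0644). R225, a bright set, went from 14.48 and 14.10 to 13.81 and 12.85. Its arrays did not overlap (12.81 to 13.91 at 48 h, 13.94 to 14.85 at 0 h). It fell by 0.95 ± 0.21 (SE), 1.94-fold (adjusted p = 0.0118; 0.498 without the block). Omitting library 2 of 0 h (0.0868) or, at 48 h, library 1 (0.0590) or library 2 (0.0974) ended its call, as did leaving out normalization (0.101), the 6 libraries alone (0.0726) and first hybridizations alone (0.153). Over all sets the 48 h count dropped to 14 when its library 1 was omitted and to 12 when its library 2 was.

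**Figure D3:**
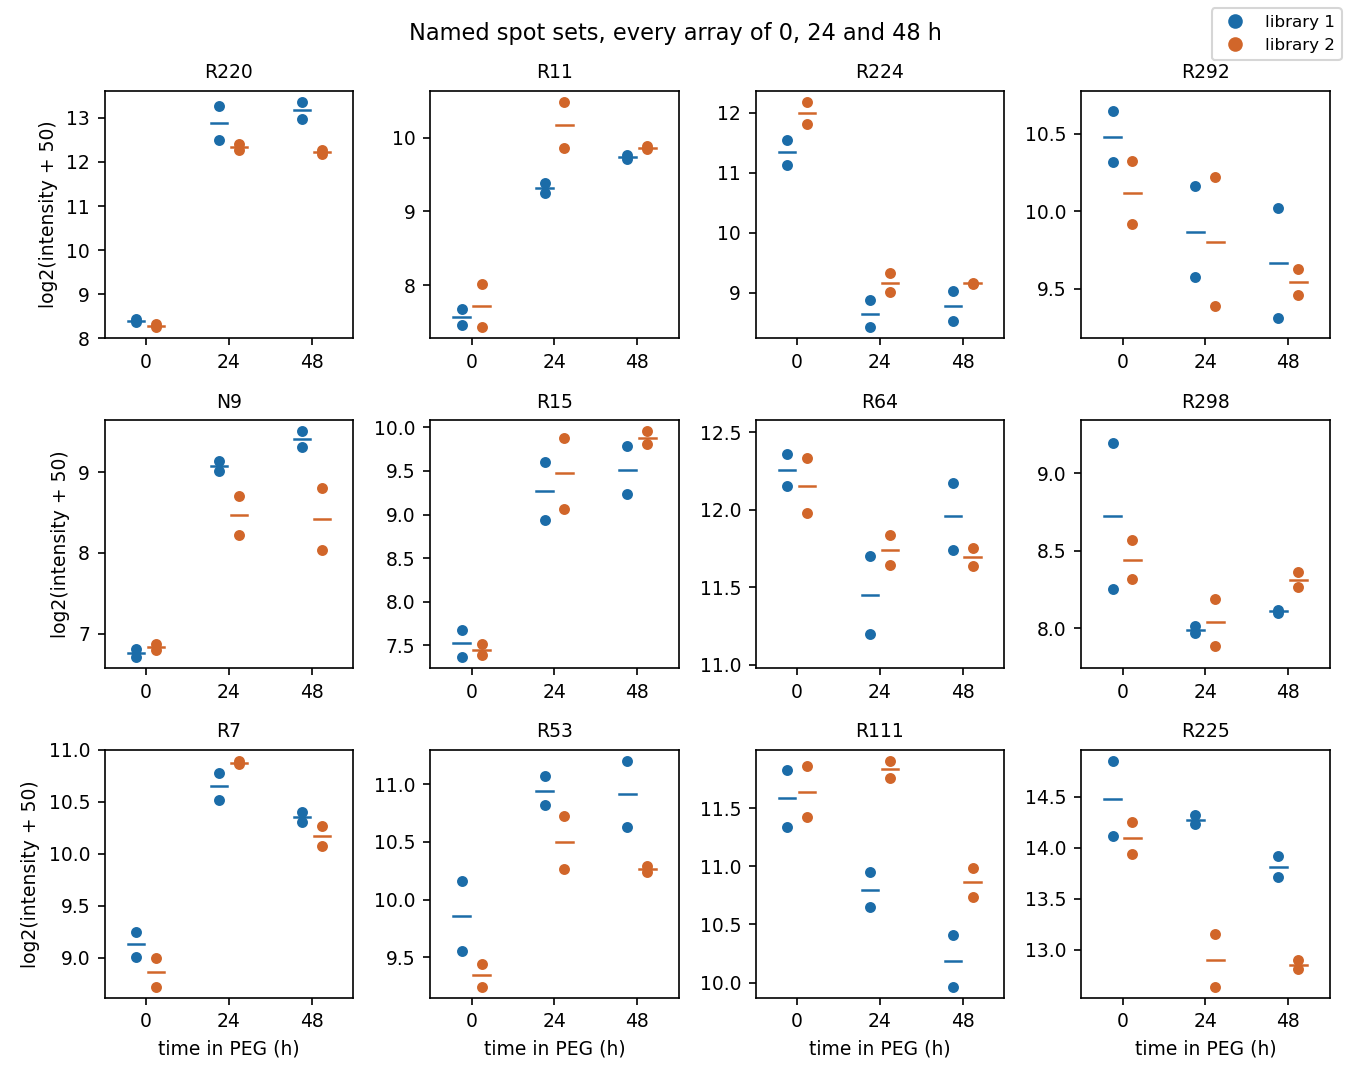
Log2(intensity + 50) on every array of 0, 24 and 48 h (horizontal axis, time in PEG) for 12 named spot sets, with the vertical axis scaled to each set; points are arrays, bars are library means, blue is library 1 and orange library 2. R220 rises from between 8.25 and 8.43 to between 12.18 and 13.37, and R224 drops from between 11.13 and 12.19 to between 8.43 and 9.33, while the arrays of R292 overlap between the groups.

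Nothing passed the threshold between the late times themselves. Comparing 48 h with 24 h, limma called 0 of 224 sets (0.0%), with 26 at an unadjusted p under 0.05 and a smallest adjusted p of 0.120. Alternatives called 2 sets without normalization (2 higher, 0 lower), 2 when all 24 arrays entered with the library as a random block, and 4 among the brighter 112 sets. The 95% interval of a set, not adjusted for the 224 tests, reached a median of 0.32 to either side on the log2 scale. That width is not a limit of detection. With 2 libraries each, differences well above it also missed the threshold, such as that of R111 below, so the absence of calls does not show equal levels. For R220 the difference was 0.09 (95% interval -0.30 to 0.48) and for R224 0.05 (-0.31 to 0.42). R7 was at 10.76 ± 0.16 (SD, n = 2) at 24 h and 10.26 ± 0.13 at 48 h, a difference of -0.50 (-0.83 to -0.17, adjusted p = 0.243). R111, which was called at 48 h, had a log2 change of -0.30 at 24 h (adjusted p = 0.452); its difference between the late times was -0.79 (-1.27 to -0.31, adjusted p = 0.207). Its libraries split at 24 h, with library 1 at 10.80 and library 2 at 11.83, the latter within the range of the 0 h arrays.

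The last comparison asked whether levels at 24 and 48 h differed from those at 0.5, 2 and 6 h of PEG. No 0 h library has a weight in that difference, although the 0 h libraries share in the normalization and in the estimate of the spread. The early samples were taken at other times of day than the late ones, so time of day and time in PEG cannot be told apart in it. Of the 224 sets 27 were called (12.1%), 16 higher and 11 lower at the late times, with 43 at an unadjusted p under 0.05. Only 2 were called without the block (2 higher and 0 lower), and 15 on first hybridizations alone. Median scaling gave 17 higher and 7 lower, and leaving out normalization gave 17 and 4. With library 1 of 0.5 h omitted 16 calls were left, as with library 2 omitted at 24 h, and 17 with library 2 omitted at 48 h.

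R11 had the largest difference. Its mean level was 8.84 ± 0.05 (SD, n = 2) at 0.5 h, 8.47 ± 0.01 at 2 h and 8.99 ± 0.22 at 6 h, against 9.74 ± 0.60 at 24 h and 9.80 ± 0.09 at 48 h. Every late library lay above every early one, and the difference was 1.01 ± 0.12 (SE), 2.01-fold (adjusted p = 0.000716; 0.0235 without the block, the highest over its alternatives). R54 had library levels of 9.54 and 9.09 at 0.5 h, 9.80 and 9.81 at 2 h, 10.54 and 9.97 at 6 h, 11.16 and 10.09 at 24 h, and 11.04 and 10.52 at 48 h. In each library number the late levels were above the early ones of that number, although library 1 at 6 h exceeded both late values of library 2. The difference was 0.91 ± 0.14 (SE), 1.88-fold (adjusted p = 0.00275; 0.196 without the block, the 1 alternative that ended the call). R54 also passed against 0 h, with a change of 0.91 (adjusted p = 0.00768), but 3 of 27 alternatives ended that call, with an adjusted p of 0.202 without the block and up to 0.0714 with a library omitted.

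R221 and R225 were lower in the mean of the late times than in the mean of the early ones, but not at each late time against each early one. R221 had mean levels of 14.27 ± 0.32, 14.39 ± 0.68 and 14.99 ± 0.28 at 0.5, 2 and 6 h and of 13.91 ± 0.88 and 13.90 ± 0.37 at 24 and 48 h (SD, n = 2). Early and late libraries overlapped. The difference was -0.64 ± 0.13 (SE; adjusted p = 0.00822; 0.527 without the block, again the 1 alternative that ended the call), while the late levels differed from 0 h by -0.06 (95% interval -0.44 to 0.31, adjusted p = 0.857). R225 had mean levels of 13.67 ± 0.78, 14.13 ± 0.49 and 14.50 ± 0.42 early and of 13.59 ± 0.97 and 13.33 ± 0.68 late. Early and late libraries of R225 overlapped as well. In library 1 the 24 h level was above the 0.5 h level for R225 (14.28 and 14.22) and for R221 (14.53 and 14.49). The difference of R225 was -0.64 ± 0.13 (SE; adjusted p = 0.0111). That call was lost without the block (0.609), without normalization (0.0873), on first hybridizations alone (0.0611) and when library 1 of 0.5 h (0.0504) or library 2 at 24 h (0.0639) or 48 h (0.0621) was omitted.

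The 2 sets with the largest late changes stood away from their 0 h level at every early time too. R220 was at 8.35 ± 0.08 (SD, n = 2) at 0 h and 12.08 ± 0.33 at 0.5 h, then at 11.30 ± 0.21 at 2 h and 12.001 ± 0.24 at 6 h, before 12.61 ± 0.38 and 12.70 ± 0.67 at the late times. Its late levels exceeded the early ones by 0.86 ± 0.11 (SE; adjusted p = 0.00119; 0.130 without the block). R224 was at 11.67 ± 0.47 at 0 h and at 9.32 ± 0.61, 9.73 ± 0.77 and 9.64 ± 0.59 at the early times, before 8.91 ± 0.37 and 8.96 ± 0.27. Its late levels were lower than the early ones by 0.62 on the log2 scale (-0.62, adjusted p = 0.00492; 0.546 without the block).

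**Figure D4:**
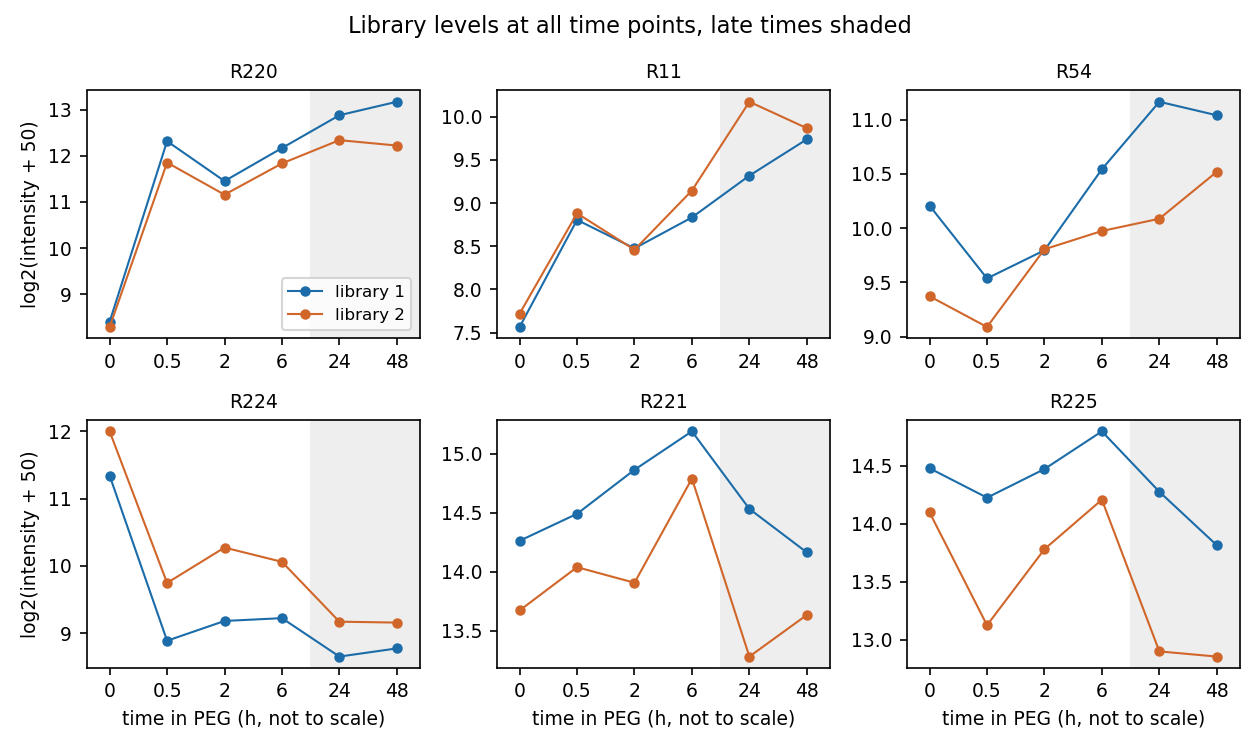
Level of each library (log2(intensity + 50), vertical axis scaled to each set) at the 6 time points (horizontal axis, equally spaced and not to scale) for 6 named sets; lines join libraries of the same number and the late times are shaded. R220 and R11 stand highest and R224 lowest at the late times, while the mean of R221 is 14.99 at 6 h and 13.91 and 13.90 at 24 and 48 h.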

How the data were processed

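The arrays measured small RNAs of rice seedlings. Per the file headers, the deposited scanner values are spot intensities and local backgrounds on a linear scale in 1 colour, and the authors' deposited table equals intensity less background at every spot (to within 9e-06). Background was above 0 on 41 of the 10752 spots of the 12 arrays, so signal over background cannot be judged. No other step of the authors is stated in the sources used here.

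Intensity was offset by 50, log2 transformed, quantile normalized over the 24 arrays and averaged over spots and hybridizations. Code R105 stands at 2 places, each treated as its own set. The software limma 3.58.1 in R 4.3.3 (statmod 1.5.0 for random blocks) was fitted to all 12 libraries, with factors for time and for library number, the latter a block (leaving 5 degrees of freedom, or 2 with the 6 libraries alone). Benjamini-Hochberg adjustment covered the 224 sets of a comparison, with two-sided tests and standard errors as moderated by limma. The fit was also run on simulated data with independent noise and the same additive library block that it assumes. Such data cannot show whether the block, the floor or the ceiling of the real arrays misleads the fit.

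The block follows the library number of the titles and was checked in the data: library 1 minus library 2 correlated across sets between all 15 pairs of times (0.49 to 0.77). The lowest values were those of 0 h with 24 h (0.49), 6 h (0.54) and 48 h (0.55), while 0 h with 0.5 h gave 0.70. The labels do not say what a number shares. The median fitted SD was 0.15 with the block and 0.19 without it.

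Sets were named by rank of change among called sets, 2 in each direction; against 0 h only those whose libraries did not overlap, and only sets with no spot at the ceiling. At 24 and 48 h sets already named were passed over. The comparison, lists and tests were chosen with earlier results of these data known. Planned lists of microRNA families and control probes could not be run, because no source used here pairs codes with names.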

Additional observations from a re-analysis of the deposited data

Results flagged for a closer look

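The first hybridization of library 1 at 24 h stood apart from the other 3 arrays of its time in raw brightness. Its 5th percentile of intensity was 135, against 34.0 to 45.6 on the others, and its median intensity was 407, against 194 to 226. Both gaps exceeded Dixon's 95% critical value for 4 arrays. In all, 48 groups of 4 arrays were examined this way and 2 were picked out, where chance at 1 in 20 gives 2.4. Without the first hybridizations of library 1 at 24 and 48 h, an alternative chosen after seeing the data, 35 sets differed between the late times and 0 h (19 higher and 16 lower), beside 33 with them. Of the named sets only R292 lost its call there.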

How the results depend on the processing

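The number of called sets depended most on the replicate block. Without it the counts were 12 for late PEG against 0 h (33 with it), 8 for 24 h (23), 11 for 48 h (30), 0 for 48 h against 24 h (0) and 2 for late against early PEG (27). With the 6 libraries of 0, 24 and 48 h alone the counts were 20 for late PEG and 15 for 24 h. The comparison of 48 h with 24 h had 2 calls without normalization, 2 with all 24 arrays and the library as a random block, and 4 among the brighter sets. Late against early PEG had 15 calls on first hybridizations. Leaving out 1 library at a time gave 22 to 31 calls for late PEG, 15 to 22 for 24 h, 12 to 31 for 48 h, 0 to 0 for 48 h against 24 h and 16 to 28 for late against early PEG; with a library left out, the one that remains at its time is assumed to vary like the others. Of 128 pairs of a count and an alternative, 110 stayed within 1.5 times the main count. These include 48 h against 24 h, where a main count of 0 allows no ratio and an alternative count of 0 was tallied as within. The 16 values named in 14 sets kept their direction in all 414 pairs of a value and an alternative. That outcome was favoured in advance, since the values were picked by size of change and the alternatives reuse the same libraries. Of the 414 pairs, 42 missed the threshold. The 7 values that never missed it were those of R220, R11, R224, R15, N9 and R7 against 0 h and of R11 against early PEG. Leaving out sets with a spot above 60000, an alternative chosen after seeing the data, gave 30 calls for late PEG. No slide or scan batch is named in the files, so no block for one was run. Array-level terms were added after seeing the data, each with all 24 arrays. The hybridization number of the titles is balanced within every library, although the 5th percentile of intensity was higher on hybridization 1 in 11 of 12 libraries; with it as a term the counts were 42 for late PEG, 32 for 24 h, 37 for 48 h, 2 for 48 h against 24 h and 33 for late against early PEG. The array names in the scanner records carry a number of unstated meaning, with 9 different values; with it as a covariate the counts were 27, 24, 29, 2 and 33, and R292 and R298 lost their calls. The records also ran in order of time point, so that order and time cannot be told apart. The number of libraries, 2 per time, limits every comparison, and dim sets are limited by the floor of the arrays.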

Other observations

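A run of neighbouring probe codes, R45 to R54, shared a direction at the late times. It was picked after its values were seen, so no test is given. All 10 sets lay above 0 h in the late mean, 9 of them in both library numbers, with log2 changes of 0.11 to 1.06 and a median of 0.70, beside a median of -0.06 over all 224 sets. By limma 6 of the 10 were called higher and 0 lower, beside 8.04% higher and 6.7% lower over all sets, and nothing is read from this count, since the run was picked on the same values. The median was 0.37 in library 1 and 0.87 in library 2, and it was 0.52 at 24 h and 0.85 at 48 h. The 10 sets are spread over 4 sub-grids at like positions and span mean raw intensities at 0 h from 716 to 31345. The median was 0.40 after median scaling, 0.76 without normalization and 0.69 with cyclic loess, beside -0.04, 0.22 and -0.02 over all sets. In these settings 3, 6 and 6 of the run were called higher, beside 17, 26 and 21 of all 224 sets. Without the replicate block 1 of the 10 was called higher, beside 8 of all 224 sets. No source used here says what the probes of this run share.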
